A study of Rattus norvegicus with 4 samples.

Results

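The voltage-gated sodium channel genes of sensory cells are described here across the cells of the rat dorsal root ganglion and between Sham and CPIP rats. The 7 genes, Scn1a (ENSRNOG00000053122), Scn3a (ENSRNOG00000005007), Scn7a (ENSRNOG00000029342), Scn8a (ENSRNOG00000005309), Scn9a (ENSRNOG00000006639), Scn10a (ENSRNOG00000032473) and Scn11a (ENSRNOG00000032884), were taken by their symbols from the 25629 features of the count matrices, and each symbol belonged to 1 feature. The ganglia hold the cell bodies of the sensory neurons of the body, wrapped by satellite glia and crossed by Schwann cells and vessels. The animals were naive wild-type male SD rats, put into a Sham or a CPIP group, and each library pooled 3 of them. Ganglia L4-L6 of the ipsilateral side were dissociated with dispase, collagenase and papain. What CPIP stands for, the age of the rats and the time after the procedure are not spelled out in the labels. There were 4 libraries, Sham 1, Sham 2, CPIP 1 and CPIP 2, so that p-values measure the spread between 2 pools per group.

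Apart from Scn7a, each of these genes encodes an alpha subunit that forms a complete pore that opens when the membrane depolarises. Most of these pores close by inactivation within milliseconds and carry the upstroke of the action potential. Beta subunits, fibroblast growth factor homologous factors and ankyrins bind the alpha subunit and set its gating and its place in the membrane. Scn9a encodes a channel that amplifies small depolarisations and whose loss in humans abolishes pain, while Scn10a and Scn11a encode the tetrodotoxin-resistant channels of nociceptors. Scn1a and Scn8a are known from fast-firing, myelinated axons, Scn3a from embryonic neurons, and Scn7a encodes a sodium-sensing channel of glia that does not open with voltage.

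The libraries held 11829 to 12828 barcodes and 60885664 to 64550637 UMIs (unique molecular identifiers, 1 per captured transcript), and 45438 cells were retained. Barcodes shared between any 2 libraries numbered 1 to 5. Clustering without the sodium channel genes gave 10723 neurons, 17659 satellite glia, 1937 non-myelinating and 1699 myelinating Schwann cells, 3138 endothelial cells, 398 pericytes, 664 smooth muscle cells, 974 fibroblasts and 1010 macrophages. All 15 neuron markers were above 0 in neurons, with a summed level of 24669 to 26581 CPM (a gene's UMIs scaled to a common library total), against 1450 to 1834 CPM in endothelial cells. Names mean likeness to a class in these markers. Levels below are CPM of all UMIs of a cell group in a library, in the order Sham 1, Sham 2, CPIP 1 and CPIP 2. UMIs count tagged ends with no length scale and their priming differs between genes, so levels are compared between cells for 1 gene and not between genes.

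The members lie in 3 places of the rat genome (RefSeq, GRCr8). On chromosome 3, Scn1a, Scn9a and Scn7a are successive protein-coding genes and Scn3a is next to Scn2a. On chromosome 8, Scn10a and Scn11a have 1 annotated gene, LOC108351811, between them, and Scn8a lies alone on chromosome 7. RefSeq promoters, 250 bases before to 50 after the annotated start, were matched for 6 of the 7 members. They are shown for 5, because neighbours differ in where they were found (Scn9a in neurons, Scn7a in glia), because Scn10a and Scn11a were both highest in Iapp-Crh neurons, and because Scn3a was highest in the vessel wall. Capitals mark matches, on either strand, to the GC box GGGCGG, the RUNX core TGTGGT or the AP-1 site TGANTCA. The TATA box letters TATAAA and the cAMP response element TGACGTCA were searched as well and were in none of the 6, and no match overlapped another. Build GRCr8, minus strand, these are chr3:71701328-71701627 for Scn9a, chr3:71846235-71846534 for Scn7a, chr8:128340249-128340548 for Scn10a, chr8:128444669-128444968 for Scn11a and chr3:70666149-70666448 for Scn3a.
Scn9a: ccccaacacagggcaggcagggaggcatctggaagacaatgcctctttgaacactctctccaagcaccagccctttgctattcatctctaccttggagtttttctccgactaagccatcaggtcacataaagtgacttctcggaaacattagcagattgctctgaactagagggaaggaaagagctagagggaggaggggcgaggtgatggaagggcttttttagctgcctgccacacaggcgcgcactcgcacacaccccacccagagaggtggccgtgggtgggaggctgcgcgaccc
Scn7a: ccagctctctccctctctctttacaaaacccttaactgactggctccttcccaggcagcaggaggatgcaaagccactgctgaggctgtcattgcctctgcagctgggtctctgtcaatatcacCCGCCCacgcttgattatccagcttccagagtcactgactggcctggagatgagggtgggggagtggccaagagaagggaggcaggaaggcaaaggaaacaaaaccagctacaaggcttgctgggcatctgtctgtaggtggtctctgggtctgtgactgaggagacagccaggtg
Scn10a: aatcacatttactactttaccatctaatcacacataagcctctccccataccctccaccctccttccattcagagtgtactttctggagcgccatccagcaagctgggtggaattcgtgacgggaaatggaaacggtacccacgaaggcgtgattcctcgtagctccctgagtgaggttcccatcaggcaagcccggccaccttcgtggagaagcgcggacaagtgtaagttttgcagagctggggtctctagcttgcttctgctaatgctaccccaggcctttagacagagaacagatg
Scn11a: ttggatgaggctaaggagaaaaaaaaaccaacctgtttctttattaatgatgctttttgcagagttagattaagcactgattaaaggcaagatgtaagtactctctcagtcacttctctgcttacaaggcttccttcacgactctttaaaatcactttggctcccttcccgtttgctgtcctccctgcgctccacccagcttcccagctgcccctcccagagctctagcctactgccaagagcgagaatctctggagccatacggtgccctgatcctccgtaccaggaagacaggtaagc
Scn3a: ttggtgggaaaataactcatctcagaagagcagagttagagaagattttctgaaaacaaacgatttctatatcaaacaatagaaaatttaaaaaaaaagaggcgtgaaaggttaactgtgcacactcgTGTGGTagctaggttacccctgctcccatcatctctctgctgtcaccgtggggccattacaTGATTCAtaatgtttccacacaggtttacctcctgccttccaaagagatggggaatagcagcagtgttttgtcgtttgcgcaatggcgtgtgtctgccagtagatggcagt

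Scn7a had 1 GC box, on the other strand at position -126 from the start, a motif that 33.1% of 33469 rat promoters of the same length hold. Scn3a had the RUNX core at position -122 (17.3% of promoters) and the AP-1 site at position -61 (7.33%). Scn9a, Scn10a and Scn11a had none of the 5 motifs, and the TATA box is in 14.2% and the cAMP response element in 1.83% of all promoters. The Scn8a promoter, not shown, was 84.7% G or C, above 99.9% of promoters, and held 7 GC boxes and 60 CpG, while the other 5 were 43.3% to 56.0% G or C around a median of 51.7% and held 2 to 11 CpG. These are letter matches in 1 window and were not related to the levels.

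Scn9a, Scn10a and Scn11a were found in neurons. Scn9a stood at 588, 601, 572 and 530 CPM in neurons (mean 573 ± 30.8, SD, n = 4 libraries). Its next levels were 109 ± 8.80 CPM in non-myelinating Schwann cells, a 5.26-fold gap, and 106 ± 19.7 CPM in pericytes, and it was lowest in fibroblasts at 24.7 ± 2.01 CPM. Every neuron library lay above every library of the other classes, and the Schwann cell and pericyte values overlapped.

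Scn10a was at 509, 461, 444 and 360 CPM in neurons (444 ± 61.8) and at 43.9 ± 15.1 CPM in non-myelinating Schwann cells, 10.1-fold lower. Scn11a was at 448, 396, 407 and 335 CPM in neurons (397 ± 46.9) and at 32.0 ± 5.27 CPM in myelinating Schwann cells, 12.4-fold lower. Both genes were lowest in satellite glia, at 14.3 and 11.3 CPM, and below neurons their classes overlapped with their neighbours in the order throughout. In endothelial cells, the comparison for stray RNA, the 3 genes stood at a like distance below neurons: the neuron level was 14.1 to 19.2 times the endothelial level for Scn9a (median 14.3), 10.8 to 19.0 times for Scn10a (median 14.6) and 11.1 to 21.9 times for Scn11a (median 15.3).

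Single cells gave the same picture. With every cell thinned to 3000 UMIs, 77.0% of 9258 neurons had a Scn9a UMI, 65.8% a Scn10a UMI and 58.8% a Scn11a UMI (86.7%, 75.7% and 69.0% without thinning). In endothelial cells the thinned shares were 8.32%, 6.82% and 5.38% of 1598 cells (9.88%, 8.13% and 6.18% without thinning). The median depth was 5868 UMIs in neurons and 3085.5 UMIs in endothelial cells, and 1465 neurons and 1540 endothelial cells were too shallow for thinning. Scn10a and Scn11a were detected together in 45.5% of thinned neurons, and none of the 7 genes in 3.54%.

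**Figure D1:**
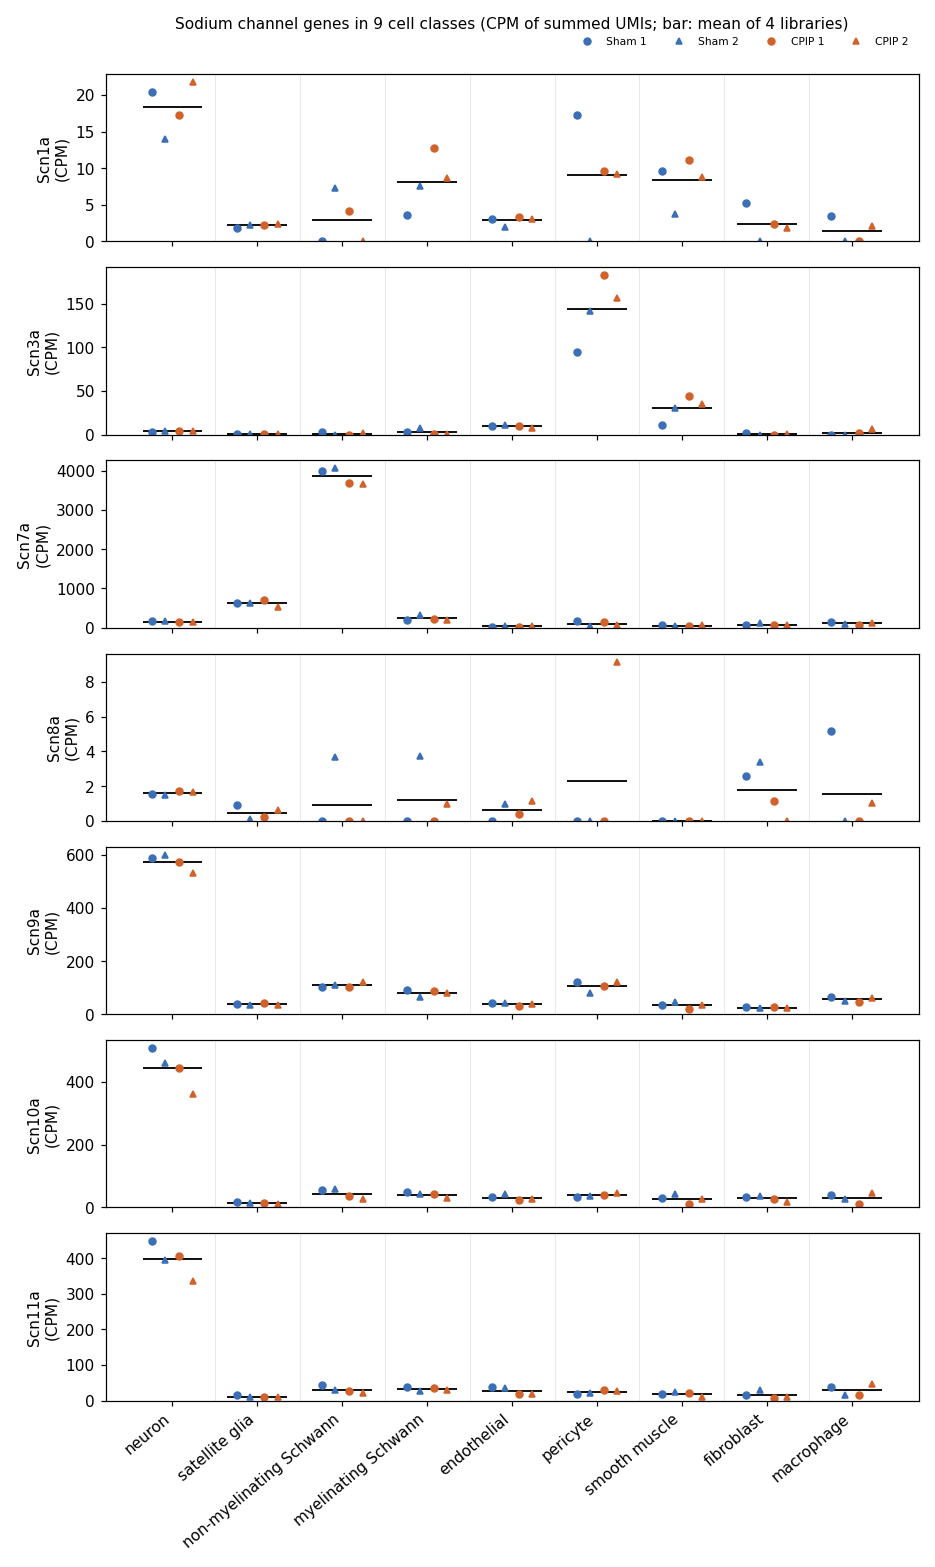
Level of each of the 7 genes (vertical axes, CPM of summed UMIs, linear, 1 panel per gene) in 9 cell classes (horizontal axis), with 1 point per library (blue Sham, orange CPIP, circles replicate 1, triangles replicate 2) and a bar at the mean of the 4 libraries. Scn9a, Scn10a and Scn11a are high in neurons, Scn7a in non-myelinating Schwann cells (3855 CPM) and Scn3a in pericytes (144 CPM).

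Among neurons the 3 genes parted. Re-clustering gave 12 sub-clusters with at least 30 cells in every library, named here by leading genes. Of these, Sst-Nppb, Trpm8-Penk, Tafa4-Nmu, Adcyap1-Npy1r and Pvalb scored highest on the lists for Sst or Nppb, cold, C low-threshold mechanoreceptor, peptidergic and large neurofilament neurons, Ntrk2-Cbln2 also on the C low-threshold mechanoreceptor list although Ntrk2 itself is on the large neurofilament list, and Iapp-Crh, Mrgprb4 and Anxa1-Reg3a on the non-peptidergic list. Kcnv1-Nefh and S100a16-Sema5a stayed without a type.

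Scn9a was the most even of the 3. It was highest in Sst-Nppb neurons, at 816, 846, 814 and 782 CPM (814 ± 26.4), and all 4 libraries there lay above those of the next, Trpm8-Penk (741 ± 32.5). From Trpm8-Penk through Kcnv1-Nefh (689), Iapp-Crh (625), S100a16-Sema5a (602), Mrgprb4 (547), Ntrk2-Cbln2 (535), Tafa4-Nmu (503) and Adcyap1-Npy1r (503) down to Anxa1-Reg3a (489), each overlapped with its neighbour. Pvalb neurons stood apart below all of these, at 64.8, 93.8, 65.8 and 16 CPM (60.1 ± 32.3), 13.6-fold below Sst-Nppb.

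Scn10a split the neurons into 2 sets. It was highest in Iapp-Crh neurons, at 766, 709, 680 and 624 CPM (695 ± 59.4), followed by Anxa1-Reg3a (630 ± 71.2), Mrgprb4 (585 ± 55.6), Kcnv1-Nefh (477 ± 132), Sst-Nppb (449 ± 54.5), S100a16-Sema5a (382 ± 52.4), Adcyap1-Npy1r (307 ± 35.8) and Tafa4-Nmu (252 ± 29.4), each overlapping with the next. Below Tafa4-Nmu came the only gap in the order. Ntrk2-Cbln2 had 34.9 ± 18.5 CPM, Pvalb 18.6 ± 7.10 CPM and Trpm8-Penk 9.27, 15.1, 7.73 and 8.85 CPM (10.2 ± 3.31), which is 67.8-fold below Iapp-Crh. Endothelial cells had 31.3 ± 8.67 CPM.

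Scn11a shared the top of that order and not its middle. Iapp-Crh neurons had 738, 721, 670 and 698 CPM (707 ± 29.6), Mrgprb4 677 ± 77.5, Anxa1-Reg3a 604 ± 31.3 and Sst-Nppb 424 ± 39.1 CPM. Tafa4-Nmu (341 ± 42.0) stood apart from Sst-Nppb above it and from S100a16-Sema5a (149 ± 16.7) below it. Adcyap1-Npy1r (146 ± 10.1) stood apart from Kcnv1-Nefh (42.9, 26.0, 62.9 and 37.0 CPM, 42.2 ± 15.5), and Ntrk2-Cbln2 (16.7), Pvalb (14.4) and Trpm8-Penk (6.48) closed the order.

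Kcnv1-Nefh and Trpm8-Penk neurons show how far the 3 genes can part. In thinned Kcnv1-Nefh neurons, Scn9a was detected in 82.9% of 328 cells, Scn10a in 67.1% and Scn11a in 6.10%. The Scn11a share in thinned endothelial cells was 5.38%. Over all cells the Scn11a level was 42.2 ± 15.5 CPM in Kcnv1-Nefh neurons and 27.5 ± 10.7 CPM in endothelial cells, with overlapping libraries. In thinned Trpm8-Penk neurons, Scn9a was detected in 83.6% of 274 cells, Scn10a in 3.28% and Scn11a in 2.19%, both below the endothelial shares. Without thinning these shares were 63.2%, 51.2% and 11.4% in Kcnv1-Nefh (median 2342 UMIs, 401 cells too shallow) and 87.7%, 11.1% and 7.14% in Trpm8-Penk neurons (median 13220 UMIs, 76 too shallow). Iapp-Crh neurons had Scn10a and Scn11a together in 72.5% of cells, Kcnv1-Nefh in 4.57% and Trpm8-Penk in 0.730%. In Pvalb neurons none of the 7 genes was detected in 34.6% of 179 cells, and the mean number of genes detected was 0.922 against 2.43 over all neurons.

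**Figure D2:**
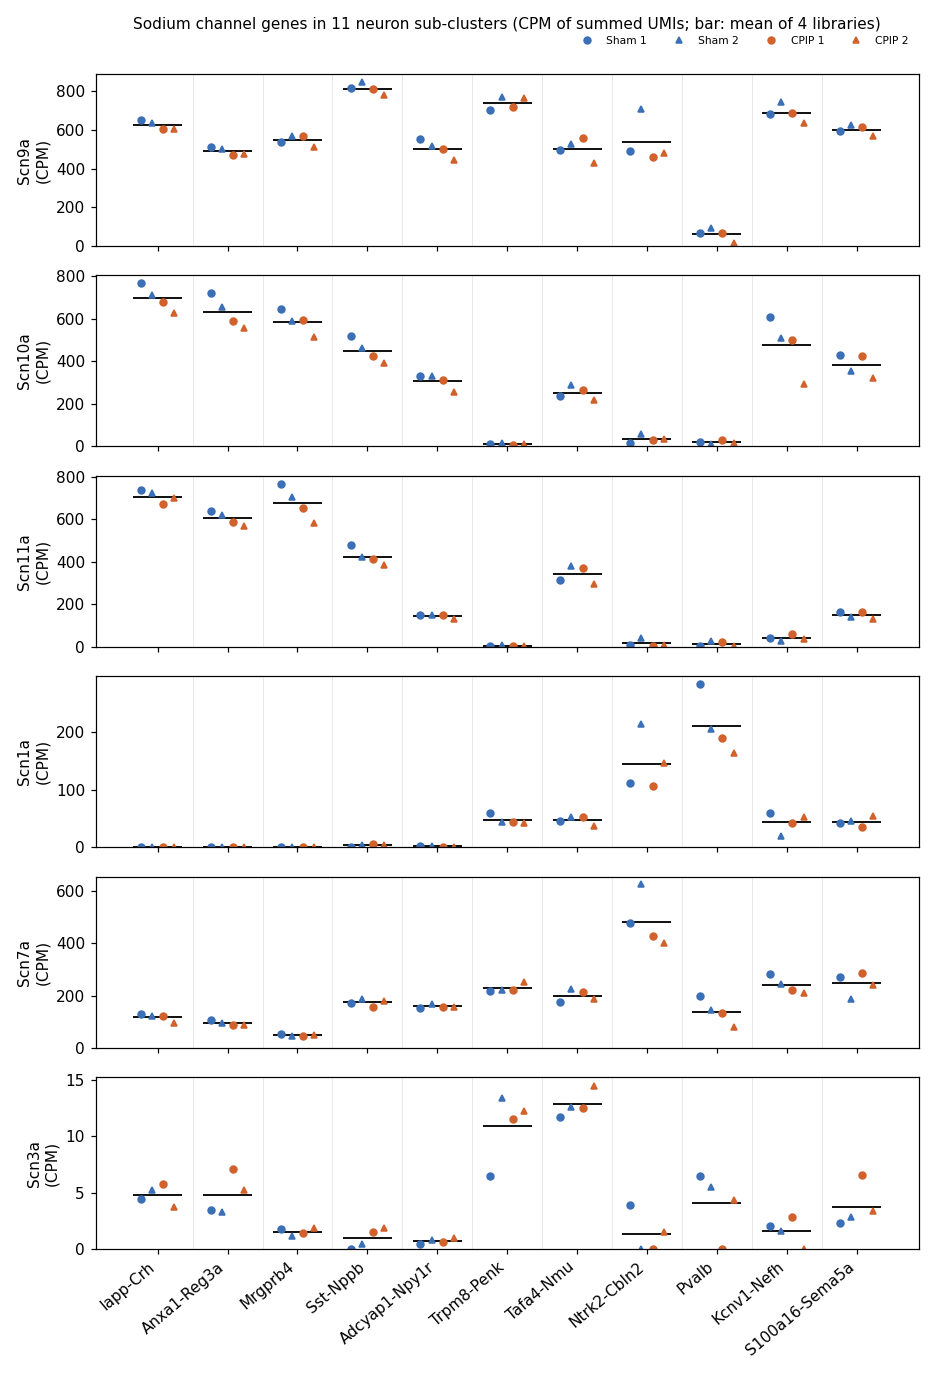
Level of Scn9a, Scn10a, Scn11a, Scn1a, Scn7a and Scn3a (vertical axes, CPM of summed UMIs, linear, 1 panel per gene) in 11 neuron sub-clusters (horizontal axis), with 1 point per library (blue Sham, orange CPIP, circles replicate 1, triangles replicate 2) and a bar at the mean of the 4 libraries. Scn9a is low only in Pvalb neurons among these, Scn10a and Scn11a are low in Ntrk2-Cbln2, Pvalb and Trpm8-Penk neurons, and Scn1a is high in Pvalb (210 CPM) and Ntrk2-Cbln2 (144 CPM) neurons.

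Scn1a ran the other way. In neurons as a whole it was at 20.4, 14.0, 17.2 and 21.8 CPM (18.4 ± 3.48), and the next class, pericytes, had 17.2, 0, 9.61 and 9.17 CPM, overlapping with neurons. Pvalb neurons had 282, 204, 189 and 163 CPM (210 ± 51.1) and Ntrk2-Cbln2 neurons 112, 213, 106 and 146 CPM (144 ± 49.2), with overlapping libraries. Pvalb marks proprioceptive neurons, whose axons are large and myelinated. Trpm8-Penk (47.9 ± 8.28), Tafa4-Nmu (46.8 ± 7.86), S100a16-Sema5a (44.8 ± 7.27) and Kcnv1-Nefh (43.7 ± 16.9) formed a middle set that overlapped within itself and lay apart from Ntrk2-Cbln2 above. The rest lay apart below, with 3.61 CPM in Sst-Nppb, 1.87 CPM in Adcyap1-Npy1r and 0.926 CPM in Iapp-Crh neurons. After thinning, 45.3% of Pvalb, 29.6% of Ntrk2-Cbln2, 14.2% of Trpm8-Penk and 0.389% of Iapp-Crh neurons had a Scn1a UMI, against 0.939% of endothelial cells. Without thinning these were 44.6%, 46.3%, 40.0%, 0.675% and 0.956%, at median depths of 3044, 5079.5, 13220, 5863.5 and 3085.5 UMIs, and 173 Pvalb and 133 Ntrk2-Cbln2 neurons were too shallow.

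Scn8a, which serves the nodes of myelinated axons, was at the limit of detection. Neurons had 1.52, 1.47, 1.71 and 1.69 CPM (1.60 ± 0.119, 160 UMIs in all), and the class means ran up to 2.29 CPM in pericytes, which rests on 1 UMI. Smooth muscle cells had 0 UMIs, which allows up to 4.13 to 11.1 CPM in the 4 libraries for counting error alone. The highest sub-cluster means were 6.17 CPM in Ntrk2-Cbln2, 5.38 CPM in Kcnv1-Nefh, 4.34 CPM in Pvalb and 4.21 CPM in S100a16-Sema5a neurons, and no neighbours in the order of 12 were apart. A Scn8a UMI was found in 0.626% of thinned neurons (1.42% without thinning) and in 0 of 1598 thinned endothelial cells, which allows a share of up to 0.188%. Without thinning, 4 of 3138 endothelial cells (0.127%) had one.

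Scn3a had its highest level outside neurons, in pericytes, the mural cells of capillaries. Pericytes had 94.6, 142, 183 and 156 CPM (144 ± 36.9, 67 UMIs), smooth muscle cells 11, 30, 44.3 and 35.2 CPM (30.1 ± 14.0, 48 UMIs) and endothelial cells 10.2, 10.4, 9.67 and 8.02 CPM (9.57 ± 1.08). Pericytes were apart from all other classes, at 29.3 to 40.2 times the neuron level within each library, and the endothelial level was apart from neurons below it. Neurons had 3.23, 3.53, 4.56 and 3.98 CPM (3.82 ± 0.580). All of these were apart from satellite glia (0.512 ± 0.0655 CPM).

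The vessel cells themselves were mixed to a degree. In pericytes, 7 of 8 pericyte markers in the files were above 0 in every library with a summed level of 3939 to 4681 CPM, while neuron markers summed to 3720 to 4869 CPM. The neuron marker sum was highest in CPIP 2 and the Scn3a level in CPIP 1, and its part in the Scn3a level was not tested. Within neurons Scn3a was highest in Tafa4-Nmu (11.7, 12.6, 12.6 and 14.5 CPM, 12.9 ± 1.19) and Trpm8-Penk neurons (6.49, 13.4, 11.6 and 12.3 CPM, 10.9 ± 3.07), with overlapping libraries. Both were apart from Iapp-Crh, the next at 4.78 ± 0.877 CPM, while the Sham 1 library of Trpm8-Penk lay below the highest library of Anxa1-Reg3a (7.08 CPM).

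Scn7a marked glia. Non-myelinating Schwann cells, which ensheath small unmyelinated axons, had 4003, 4062, 3683 and 3671 CPM (3855 ± 207). Satellite glia followed at 628, 622, 706 and 528 CPM (621 ± 73.2), and the Schwann cell level was 5.21 to 6.96 times as high within each library. Myelinating Schwann cells (236 ± 56.3) and neurons (158 ± 4.57) were lower, and endothelial cells had 28.6, 37.0, 29.4 and 34.0 CPM (32.2 ± 3.96), 108 to 140 times below the non-myelinating Schwann cells. A Scn7a UMI was present in 96.5% of the 115 non-myelinating Schwann cells deep enough for thinning, in 67.6% of 14256 satellite glia, in 35.0% of neurons and in 6.38% of endothelial cells. Without thinning these shares were 96.2%, 81.9%, 56.9% and 8.86%, at median depths of 1320, 5171, 5868 and 3085.5 UMIs, and 1822 non-myelinating Schwann cells and 3403 satellite glia were too shallow.

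Satellite glia were not uniform in Scn7a. The cluster led by Cdh19 and Stx11 had 1041, 1194, 1197 and 919 CPM (1088 ± 134), the one led by Sox10 and Hey2 725 ± 78.6 CPM, those led by Gbp5 and by Tyrp1 and Spp1 395 ± 57.1 and 382 ± 47.3 CPM, and the one led by Spp1 and Fbln2 360, 316, 301 and 253 CPM (307 ± 44.2). The Cdh19-Stx11 level was 2.89 to 3.98 times the Spp1-Fbln2 level within each library. Cdh19 is also on the marker list for non-myelinating Schwann cells, and the part of Schwann-like RNA in this order was not tested. Gbp5 and Cxcl10, which lead the third cluster, are interferon-induced genes.

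**Figure D3:**
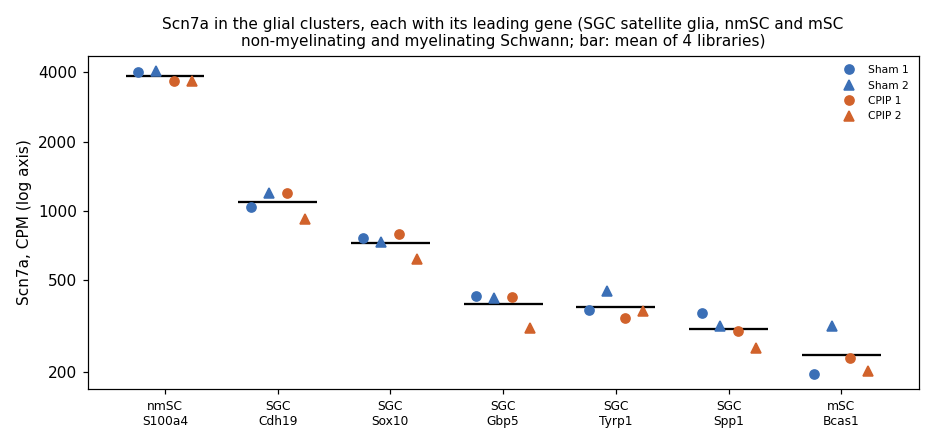
Scn7a level (vertical axis, CPM of summed UMIs, log axis) in the glial clusters (horizontal axis, SGC satellite glia, nmSC and mSC non-myelinating and myelinating Schwann cells, each with its leading gene), with 1 point per library (blue Sham, orange CPIP, circles replicate 1, triangles replicate 2) and a bar at the mean of the 4 libraries. Non-myelinating Schwann cells lie at 3671 to 4062 CPM, and satellite glia clusters run from 1088 CPM (led by Cdh19) down to 307 CPM (led by Spp1).

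Scn7a also varied among neurons. Ntrk2-Cbln2 neurons were highest at 476, 624, 426 and 401 CPM (482 ± 99.7) and apart from all others, S100a16-Sema5a followed at 247 ± 44.6 CPM, and Mrgprb4 neurons were lowest at 53.6, 47.7, 45.5 and 51.7 CPM (49.6 ± 3.71), 9.71-fold below. Satellite glia markers summed to 951 to 1655 CPM in Ntrk2-Cbln2 and to 1130 to 1239 CPM in Mrgprb4 neurons (at least 11 and 13 of 14 markers above 0 in every library). Markers of non-myelinating Schwann cells summed to 947 to 1159 and to 1316 to 1480 CPM in the same order (at least 10 of 12 above 0 in both). The part of glial RNA in these Scn7a levels was not tested.

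Over the 12 sub-clusters Scn10a and Scn11a varied together, and Scn1a inversely to both. Scn10a and Scn11a had a Pearson correlation of log2(CPM + 1) of 0.90 (Spearman 0.90), Scn1a had -0.74 (-0.88) with Scn10a and -0.82 (-0.84) with Scn11a, and Scn9a had 0.44 (0.08) with Scn10a and 0.33 (0.01) with Scn11a. Scn3a had Pearson values of -0.30 to 0.25 with the other 6 members. The points share libraries and depth, and no test was made. Among 4551 genes, the 5 most like each member by Pearson r were picked by the same measure. For Scn1a these were Atp2b2, a plasma membrane calcium pump, at 0.99, then Acsl6, Ckb, Gak and Slc22a23. Scn10a was followed most closely by Sh3bgrl3 (0.95), Ank3, which encodes the ankyrin that anchors sodium channels (0.94), Tmub2, Rmc1 and Reep1, and Scn11a by Bahd1 (0.94), Cadm1, Gucd1, Phf24 and Idnk.

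For Scn9a the closest gene was Kctd16, a subunit of GABA-B receptors (r 0.98, rho 0.78), followed by Epn2, Eepd1, Vamp2 and Slc7a7. For the last of these rho was only 0.13, and Scn9a itself was low in 1 sub-cluster, Pvalb. The genes most like Scn8a were Agpat3 (0.95), Dcun1d1, Nefl, Mapre3 and Pla2g7, and those most like Scn3a were LOC685989 (0.93), AABR07043389.1, LOC100363225, Nell2 and Dtx3. Scn7a was compared over the 9 classes and 5949 genes, where Chl1, an adhesion molecule on the Schwann cell marker list, had r 0.99, followed by Slc35f1 (0.98), Bpgm and Gfap.

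The partners of the channels differed between the same neurons. Scn4b, the beta subunit linked to resurgent current in fast-firing neurons, was highest in Ntrk2-Cbln2 (944 CPM), Pvalb (791 CPM) and Kcnv1-Nefh neurons (774 CPM). Among the 12 sub-clusters Scn3b was highest in Trpm8-Penk neurons (291 CPM) and Scn2b in S100a16-Sema5a neurons (224 CPM). Scn2a, the neighbour of Scn3a, reached 19.7 CPM in Trpm8-Penk neurons and 6.34 CPM over all neurons.

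Barcodes with few UMIs that scored as neurons were kept apart from the neurons. There were 4291 of them in 2 clusters with median UMIs of 698 and 791 and median mitochondrial shares of 2.68% and 2.37%, against 5868 UMIs and 5.80% to 6.55% in neurons. Scn8a stood there at 32.4, 31.6, 45.9 and 39.9 CPM (37.4 ± 6.75), 21.3 to 26.8 times the neuron level of the same library, and Scn2a at 16.7 to 19.3 times. Scn9a, at 1103, 1172, 1348 and 1123 CPM, was 1.88 to 2.36 times as high, Scn10a 1.73 to 2.19 times and Scn11a 1.59 to 1.87 times. In each of the 4 libraries the ratio to neurons was larger for Scn8a than for any other of the 7 genes. These barcodes were led by Gpc5, Grik1, Dgki and Csmd1 in one cluster and by Col6a5, Samd5 and Rnf112 in the other. They differ from neurons in depth and in mitochondrial share, and the part of these in the Scn8a level was not tested.

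**Figure D4:**
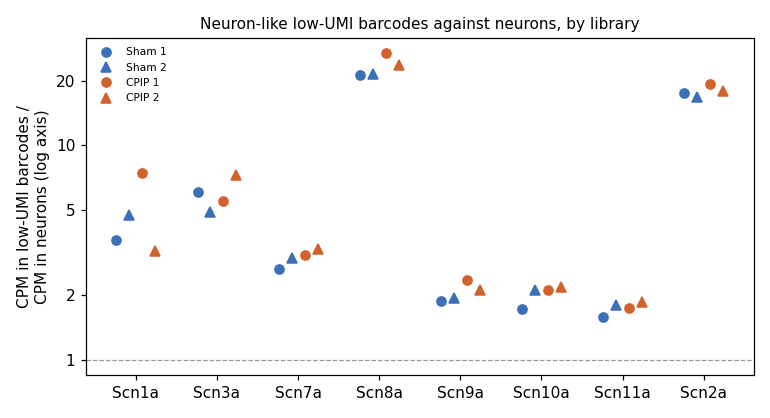
Ratio of the level in neuron-like low-UMI barcodes to the level in neurons of the same library (vertical axis, log axis, dashed line at equal levels) for the 7 genes and Scn2a (horizontal axis), with 1 point per library (blue Sham, orange CPIP, circles replicate 1, triangles replicate 2). Scn8a lies at 21.3 to 26.8 and Scn2a at 16.7 to 19.3, and Scn9a, Scn10a and Scn11a lie between 1.59 and 2.36.

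Sham and CPIP libraries were compared by edgeR's quasi-likelihood test on UMI sums. No member passed an adjusted p of 0.05 in neurons, where edgeR called 1 of 13685 genes (0.00731%) and 428 genes, none of them a member, had an unadjusted p under 0.05. DESeq2 called 9 genes and no member. Both CPIP libraries lay below both Sham libraries for Scn7a, Scn9a and Scn10a and above them for Scn3a and Scn8a. Over all genes tested in neurons, 17.9% lay apart with CPIP lower and 13.5% with CPIP higher, and 3 and 2 of the 7 members did, a set too small to be read against these shares.

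The values of the nociceptor channels were negative in neurons and did not pass the test. Scn10a, with Sham libraries at 509 and 461 CPM and CPIP libraries at 444 and 360 CPM, had a log2 fold change of CPIP over Sham of -0.26 (SE 0.12, 95% interval -0.56 to 0.05, edgeR adjusted p = 0.997). For Scn11a it was -0.17 (SE 0.12, interval -0.48 to 0.13) and for Scn9a -0.10 (SE 0.08, interval -0.29 to 0.10). Among the 7, the intervals were narrowest for Scn7a and Scn9a, the genes with the closest libraries. Scn7a had -0.05 (interval -0.23 to 0.12), Scn1a 0.19 (-0.34 to 0.73), Scn3a 0.35 (-0.12 to 0.82) and Scn8a 0.19 (-0.39 to 0.78). Within sub-clusters Scn1a was negative in 5 of 7 fits and positive in 2. It was negative in Pvalb (-0.48) and Ntrk2-Cbln2 neurons (-0.32), where its level was highest. Pvalb neurons numbered 65 and 51 in Sham and 106 and 130 in CPIP, and the part of this in the Scn1a value of all neurons was not tested.

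The Scn10a value in neurons changed with the CPIP library kept. Without CPIP 1, Scn10a was at -0.43, and without CPIP 2 it was -0.10. Iapp-Crh neurons, which had the highest Scn10a level, made up 24.2%, 21.4%, 25.1% and 16.9% of neurons in Sham 1, Sham 2, CPIP 1 and CPIP 2. The next in the Scn10a order, Anxa1-Reg3a, made up 9.13%, 9.38%, 5.78% and 8.75%, and Mrgprb4 neurons 13.2%, 10.1%, 13.2% and 9.73%. In the same order, Pvalb neurons, low in Scn10a, numbered 65, 51, 106 and 130, and Trpm8-Penk neurons 79, 74, 100 and 97. Ntrk2-Cbln2 neurons, also low in Scn10a, numbered 146, 65, 122 and 121, of 3022, 2751, 2597 and 2353 neurons in all. The part of these shares and cell numbers in the Scn10a value was not tested. In a sum over neurons, fewer cells of a type and less RNA per cell cannot be told apart. Within the Iapp-Crh neurons alone Scn10a was also lower in both CPIP libraries (766 and 709 against 680 and 624 CPM), with a log2 fold change of -0.17 (SE 0.09, interval -0.38 to 0.05).

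No member was called in any of the 12 sub-clusters. Of 55 fits of a member in a sub-cluster, 43 had a negative log2 fold change, 6 had an edgeR p under 0.05 (10.9%, against 4.45% of all genes and fits) and 0 passed the adjusted p by edgeR or DESeq2. The median log2 fold change of all genes in a sub-cluster ran from -0.0064 (Ntrk2-Cbln2) to 0.0095 (Anxa1-Reg3a). Over all genes edgeR called 0.0118% in Anxa1-Reg3a, 0.0106% in Mrgprb4 and 0% in each of the other 10. The sub-clusters share their libraries, so that their signs are not independent. Scn10a was negative in 10 of 11 sub-clusters and lay apart with CPIP lower in 7. Of all genes, those apart with CPIP lower made up 24% in Anxa1-Reg3a, 19.8% in Adcyap1-Npy1r, 18.8% in Pvalb, 18.6% in Sst-Nppb, 18.5% in Trpm8-Penk, 18.4% in Tafa4-Nmu, 18.1% in Mrgprb4, 17.8% in Iapp-Crh, 16.4% in S100a16-Sema5a, 16.1% in Kcnv1-Nefh and 11.4% in Ntrk2-Cbln2. Those apart with CPIP higher made up 12.8% in Anxa1-Reg3a, 16.1% in Adcyap1-Npy1r, 16.3% in Pvalb, 14.4% in Sst-Nppb, 12.8% in Trpm8-Penk, 15.3% in Tafa4-Nmu, 13.3% in Mrgprb4, 13.7% in Iapp-Crh, 15% in S100a16-Sema5a, 17.2% in Kcnv1-Nefh and 16.8% in Ntrk2-Cbln2. The Scn10a share of 7 in 11 is above these, from sub-clusters that share 4 libraries. Scn9a was negative in 11 of 12 and apart in 6, Scn11a negative in 8 of 9 and apart in 5, and Scn7a negative in 9 of 12 and apart in 5. Without CPIP 2, Scn11a was negative in 5 of 9.

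In Anxa1-Reg3a neurons Scn10a had 718 and 654 CPM against 590 and 558 CPM, a log2 fold change of -0.21 (edgeR adjusted p = 0.814), and in Mrgprb4 neurons Scn11a had 767 and 704 against 655 and 583 CPM, a log2 fold change of -0.23 (edgeR adjusted p = 1.00). Scn10a in Sst-Nppb neurons had 518 and 463 against 425 and 391 CPM (-0.24, edgeR adjusted p = 0.971). Both CPIP libraries lay below both Sham libraries in each of these.

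Scn10a in Kcnv1-Nefh neurons had 607, 508, 500 and 294 CPM and a log2 fold change of -0.51 (SE 0.24, interval -1.03 to 0.01, edgeR adjusted p = 0.980). These cells were shallower in CPIP, with median UMIs of 3012.5 and 3039 in Sham and 1631 and 1517 in CPIP, and the part of depth was not tested. Without CPIP 1 the value was -0.96, and without CPIP 2 it was -0.14. Leaving out CPIP 1 also moved Scn10a in Adcyap1-Npy1r neurons to -0.35 and Scn9a in Pvalb neurons to -2.22. The full comparison gave -0.22 and -0.97 for these, with no call. Each fit without CPIP 1 held 1 CPIP library.

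In Pvalb neurons, which had the highest Scn1a level, that gene had 282 and 204 CPM in Sham and 189 and 163 CPM in CPIP, apart, with a log2 fold change of -0.48 (SE 0.24, interval -1.04 to 0.07, edgeR adjusted p = 0.892). Scn7a in the same cells was at 198 and 143 CPM against 136 and 80.0 CPM (-0.71, edgeR adjusted p = 0.892). Of all genes tested in Pvalb neurons, 18.8% lay apart with CPIP lower. The Sham 2 Pvalb cells had a median of 1315 UMIs against 3141 to 3436 in the other 3 libraries.

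**Figure D5:**
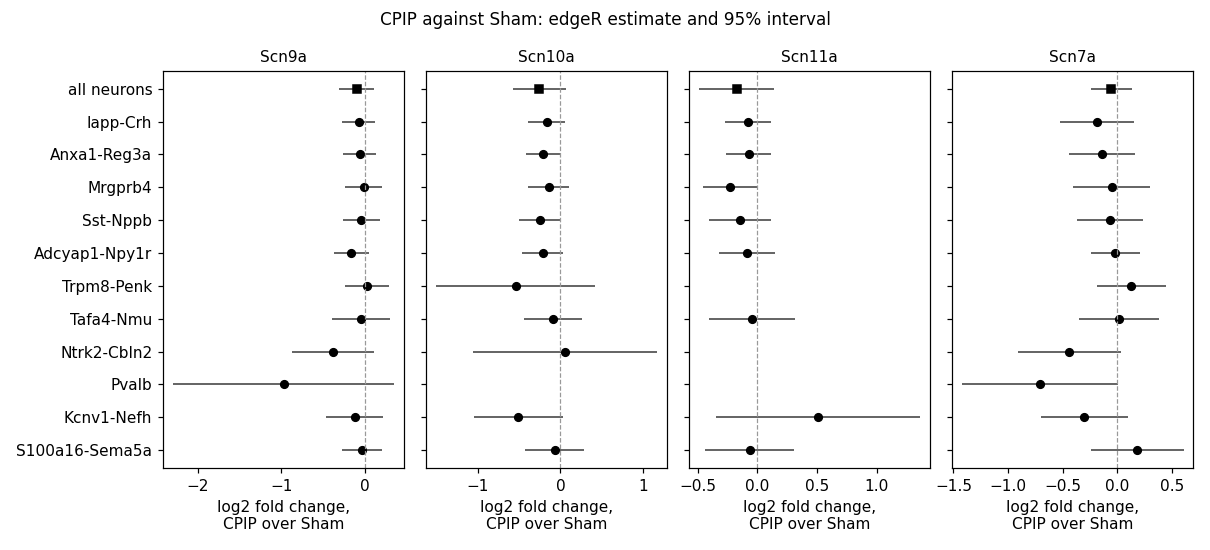
Log2 fold change of CPIP over Sham (horizontal axes, linear, with a scale of its own in each panel) of Scn9a, Scn10a, Scn11a and Scn7a in all neurons (squares) and in each of 11 sub-clusters where the gene could be fitted (circles), with 95% intervals from edgeR's quasi-likelihood fit and a dashed line at 0. In all neurons each interval spans 0, and Scn10a is negative in each sub-cluster drawn other than Ntrk2-Cbln2.

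In glia, no difference in Scn7a passed the test. Satellite glia had a log2 fold change of 0.00 (SE 0.14, interval -0.36 to 0.37, edgeR adjusted p = 0.999), with overlapping libraries (20.5% of genes lay apart with CPIP lower and 12.3% with CPIP higher), and edgeR called 0% of 13171 genes there, 415 with an unadjusted p under 0.05, against 8 genes by DESeq2. Non-myelinating Schwann cells had -0.12 (SE 0.13, interval -0.39 to 0.14, edgeR adjusted p = 0.979), with the CPIP libraries at 3683 and 3671 CPM below the Sham libraries at 4003 and 4062 CPM, as 17.7% of all genes there did (16% with CPIP higher), and 0.0281% of genes were called. Myelinating Schwann cells had -0.23 (SE 0.19, interval -0.63 to 0.17) with 0% of genes called, 17% apart with CPIP lower and 18.3% apart with CPIP higher, and their Sham 2 library, at 317 CPM, lay above the other 3 (195 to 230 CPM).

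In vessel cells Scn3a had higher CPIP means in the wall and not in the lining. Pericytes had 94.6 and 142 CPM in Sham and 183 and 156 CPM in CPIP (0.50, SE 0.36, edgeR adjusted p = 0.991), smooth muscle cells 11 and 30 against 44.3 and 35.2 CPM (0.97, SE 0.50, edgeR adjusted p = 0.914), and endothelial cells 10.2 and 10.4 against 9.67 and 8.02 CPM (-0.18, SE 0.29, edgeR adjusted p = 0.954). None passed the test. The groups were apart in all 3. With CPIP higher this held for 15.5% of genes in pericytes, 18.6% in smooth muscle and 13.2% in endothelial cells, and with CPIP lower for 16.5%, 14.3% and 21.8%, and edgeR called 0%, 0.0185% and 0.00996% of genes. Pericyte markers in smooth muscle cells summed to 524 and 868 CPM in Sham and to 1045 and 1213 CPM in CPIP (8 of 8 above 0 in every library), and the part of this in the smooth muscle value was not tested. Without 1 library at a time the smooth muscle value ran from 0.38 to 1.73 and the pericyte value from 0.25 to 0.82.

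The smallest p of any member in any class belonged to a nociceptor gene outside neurons. Scn11a in endothelial cells had 37.8 and 35.7 CPM in Sham and 18.6 and 17.9 CPM in CPIP, a log2 fold change of -0.97 (SE 0.18, edgeR adjusted p = 0.742). Without CPIP 1 the value was -1.001 and without CPIP 2 it was -0.94, each from a fit that held 1 CPIP library. With each of the 4 libraries left out in turn, it ran from -1.01 to -0.94. With all 4 libraries edgeR called 0.00996% of genes in endothelial cells. Scn10a there was at 33.7 and 42.5 against 23.4 and 25.6 CPM (-0.60, edgeR adjusted p = 0.919). Non-myelinating Schwann cells had Scn10a at 53.8 and 58.5 against 37.7 and 25.5 CPM (-0.79, edgeR adjusted p = 0.820). Neuron markers in endothelial cells, 14 of 15 above 0 in every library, summed to 1834 and 1732 CPM in Sham and 1450 and 1632 CPM in CPIP, and in non-myelinating Schwann cells to 2468, 2560, 2407 and 2580 CPM. The part of neuron RNA in these values was not tested. Over the 9 classes, 42 fits of a member gave 28 negative values, 3 with an edgeR p under 0.05 (7.14%, against 4.26% of all genes and fits) and 0 calls by edgeR or DESeq2. The median log2 fold change of all genes in a class ran from -0.011 (smooth muscle) to 0.011 (fibroblasts). The classes share their libraries, so that these signs are not independent.

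No gene of a wider list of partners of the channels passed the test in neurons. Of 54 genes listed, 50 were tested, 0 were called by edgeR (2 had an unadjusted p under 0.05) or by DESeq2, and 25 had a positive log2 fold change, with a median of 0.00 as for all genes. Among the other alpha subunits and the leak channel (2 of 4 tested, 0 positive, median -0.19), Nalcn had -0.10 and Scn2a -0.27. The 4 beta subunits had 3 positive values and a median of 0.06, and Scn4b had 235 and 188 CPM in Sham and 252 and 292 CPM in CPIP, a log2 fold change of 0.38 (SE 0.13, edgeR adjusted p = 0.997), with Scn3b at 0.12. Among neurons high in Scn4b, Pvalb cells numbered 65 and 51 in Sham and 106 and 130 in CPIP. Kcnv1-Nefh cells numbered 206 and 275 in Sham and 107 and 141 in CPIP. The part of cell numbers in the Scn4b value was not tested. Of the fibroblast growth factor homologous factors, 3 of 4 were tested and 1 was positive (median -0.01), with Fgf13 at -0.01 and Fgf12 at -0.17.

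Anchors and node proteins had 2 of 11 positive values and a median of -0.14. Ank3, the ankyrin of the axon initial segment, had -0.16, Nfasc, the neurofascin of nodes and initial segments, -0.14, and Gldn, which Schwann cells secrete at the node, -0.77 (6.68 and 4.85 against 3.17 and 3.55 CPM, edgeR adjusted p = 0.997). Trafficking and turnover partners had 8 of 18 positive values and a median of -0.01. S100a10, which carries the Scn10a channel to the membrane, had -0.03, and Nedd4l, a ubiquitin ligase of the channels, -0.16. Sodium pump and exchanger genes had 11 of 12 positive values and a median of 0.20. Atp1b3 had 0.00 and Atp1b1 0.30.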

How the data were processed

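Single-cell RNA of 4 libraries was analysed, 2 Sham and 2 CPIP, each of 3 pooled rats. Per the labels' protocols, the platform was BD Rhapsody with its whole transcriptome kit. The deposited matrices hold UMI counts, whole and not normalized. Not given in the sources used here: aligner, annotation and build. The lowest barcode total was 500 UMIs. Of the features, 3852 had no symbol, and where a symbol had several features the one with the most UMIs in neurons was used, a choice made after the data were seen.

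Cells with at least 200 genes and at most 25% mitochondrial UMIs were kept. Scrublet, as run in scanpy 1.11.5, marked 206, 171, 2 and 255 doublets in Sham 1, Sham 2, CPIP 1 and CPIP 2. For CPIP 1 this was under 0.5% and taken as failed, so the 609 cells with the highest scores (5%) were removed. Counts were scaled to 10000 per cell and logged, and 2000 variable genes without the 14 Scn genes, 30 principal components, 15 neighbours and Leiden resolution 1.0 gave the clusters (0.5 for neurons alone; Python 3.11.15, igraph 0.11.9). Clusters were named from marker lists (201 of 212 symbols in the files), with at least 3 markers detected in 10% of cells, among the 10 leading genes at least as many own markers as any other class had, and a median depth of at least that of their libraries divided by 3 unless led by their own markers. Leading genes were ranked against clusters of other classes, a choice made after the clusters were seen.

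UMIs were summed per library and class or sub-cluster with at least 30 cells in every library. Groups were tested with edgeR 4.0.16 in R 4.3.3, by quasi-likelihood with TMM, the default filter on low counts and Benjamini-Hochberg adjustment over all genes of a fit, called at 0.05, and it was tested on simulated data. Alternatives were DESeq2 1.42.0, no TMM, no filter, a replicate block, each library left out (the lone library of its group is then assumed to vary like the other group's), doublets kept, at least 1000 UMIs with at most 15% mitochondrial UMIs, low-UMI barcodes added and, chosen after seeing the data, neurons without 1 sub-cluster. Shares of cells with a UMI used cells thinned to 3000 UMIs. Levels across cell groups have no test, since the groups come from the same cells, and neighbours in an order are called apart where their 4 libraries do not overlap. Named genes were the 7 members, the 2 highest in neurons and the 1 with the smallest p of each pathway list, and the 5 genes most like each member among those of at least 50 CPM in 1 group. Some of the genes so named, and that 1 of the 12 sub-clusters, are counted in the totals and otherwise not reported here. The members and lists were chosen with earlier results of these data known.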

Additional observations from a re-analysis of the deposited data

Results flagged for a closer look

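Scn3a was flagged by a rule that picks genes whose groups lie apart in opposite directions in different classes. Both CPIP libraries lay above both Sham libraries in neurons, pericytes and smooth muscle cells, and below them in endothelial cells. Of all genes, 13.5%, 15.5% and 18.6% lay apart with CPIP higher in the first 3 classes. In endothelial cells 21.8% lay apart with CPIP lower. The endothelial Scn3a value was -0.18, with a 95% interval of -0.83 to 0.46. The log2 fold change in neurons was 0.54 above that in endothelial cells, that in pericytes 0.68 above it, and that in smooth muscle cells 1.16 above it. These differences were not tested, and no Scn3a fit passed an adjusted p of 0.05 in edgeR. The endothelial value rests on 109 UMIs, the pericyte value on 67 and the smooth muscle value on 48.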

How the results depend on the processing

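Of 245 recomputed log2 fold changes over 25 results, 233 kept their direction and side of the threshold, 7 changed sign and 5 passed the threshold. The sign changes were of Scn7a in satellite glia (0.0039 as reported), at -0.019 without TMM, -0.0023 with doublets kept and -0.23 to 0.20 when leaving out 1 library, of Scn1a in neurons (-0.059 to 0.49 over libraries left out) and of Scn7a in myelinating Schwann cells (-0.56 to 0.13). Leaving out 1 library gave 0 to 1 called members in neurons, 0 to 1 in endothelial cells and 0 to 3 in the sub-clusters together. The genes called in neurons, 1 as reported, were 9 with DESeq2, 0 without TMM, 0 with low-UMI barcodes added and 0 to 645 when leaving out 1 library. In satellite glia, 0 as reported, they were 8 with DESeq2, 1 without the filter and 0 to 506 over libraries left out. In non-myelinating Schwann cells, 2 as reported, they were 0 with DESeq2, 39 without the filter and 0 to 98. The largest of these counts, 645, 506 and 98, came without CPIP 1, and without CPIP 2 they were 47, 24 and 4.

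The replicate numbers come from the library titles. Same-numbered libraries deviated with a correlation of -0.06 over 3261 genes in neurons. The shares of neuron types also differed between libraries, so this value cannot show whether same-numbered libraries were handled as pairs. With the replicate block, Scn7a in satellite glia was -0.012 and non-myelinating Schwann cells had 22 called genes, and no member was called. Of 91 recomputed levels, 84 stayed within the spread between libraries, and finer sub-clusters (15) left the highest place of each of the 7 members in the same neurons. Scn8a and Scn3a rest on 506 and 839 UMIs in all, which limits both.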

Other observations

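A small neuron sub-cluster led by Plxnc1 and Myorg, with 14 to 24 cells in a library and 73 in all, was too small for the comparisons and had the highest levels of the nociceptor channels among neuron sub-clusters. Scn10a stood there at 2952, 2927, 2526 and 2662 CPM, Scn11a at 3096, 2042, 2273 and 2835 CPM and Scn9a at 2262, 3064, 2114 and 2488 CPM in Sham 1, Sham 2, CPIP 1 and CPIP 2. The 3 genes were each detected in all 24 cells deep enough for thinning to 3000 UMIs. The median depth of its cells was 1947 UMIs, against 5868 over all neurons. Plxnc1 is on the marker list for non-peptidergic neurons.

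A second small sub-cluster, led by Crtac1 and Hoxc11 (174 cells, 3 of them in CPIP 1), scored highest on the satellite glia list and had Scn1a at 113, 54.4, 0 and 91.8 CPM and Scn10a at 95.2, 61.8, 0 and 55.8 CPM, with Scn9a at 688, 539, 272 and 482 CPM. The 3 cells of CPIP 1 hold 11011 UMIs, so that its values of 0 carry little weight. Scn7a there was at 284, 210, 636 and 220 CPM. In the finer clustering, 173 cells led by Crtac1 and Hoxc11 scored highest on the large neurofilament list instead. None of the 10 leading genes is on either list.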
